A study of Homo sapiens with 16 samples.

Results

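The 9 genes described here are STAT3, STAT4, STAT5A, STAT5B, STAT6, JAK1, JAK2, JAK3 and SOCS3, chosen by their symbols as core members of JAK and STAT signalling. They were read by 18 of the 19065 HG-U133A probe sets that carry 1 gene symbol, and make up 9 of the 11963 genes tested. HG-U133A is a 1-colour Affymetrix array on which each gene is read by probe sets of short oligonucleotides, and the deposited values are log2 RMA levels. Where a gene had several probe sets, its values are from its brightest probe set on average, and the others are given where they differ.

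The arrays came from 8 human cell lines, each hybridised once treated and once untreated. The anaplastic large cell lymphoma (ALCL) lines were FE-PD, which is known as ALK-negative, and JB6, SU-DHL-1 and Karpas 299. The T-cell leukaemia or lymphoma lines were CCRF-CEM and Jurkat, with Molt-3 and Molt-4, which are known to come from the same patient. Treated cells had received 1 µM 5-aza-2'-deoxycytidine (5-aza-dC, an inhibitor of DNA methyltransferases) for 6 days, with 625 nM trichostatin A (TSA, an inhibitor of histone deacetylases) over the last 24 h. The study asked how far this treatment brings T-cell lines towards the expression pattern of ALCL. The other ALCL lines are known to carry an ALK fusion, and the labels do not give this status. The ALK probe set read 9.51, 9.78 and 9.43 in treated JB6, SU-DHL-1 and Karpas 299 and 10.66, 11.10 and 10.00 in the same lines untreated, against 6.41 in treated and 6.39 in untreated FE-PD. The replicates of a group are 4 different cell lines with 1 array each. For treatment, the p-values rest on how the changes vary between lines, pooled over the ALCL and T-cell lines. For comparisons of cell types, they rest on how the levels vary between the lines of a group, pooled over both groups. Molt-3 and Molt-4 were counted as separate replicates although they share a patient, so the spread between T-cell lines may be understated. Values of a group are given below in the order in which its lines are named here.

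Cytokine receptors have no kinase of their own and carry Janus kinases (JAKs) on their inner side. When a cytokine binds, the JAKs phosphorylate the receptor and the STAT proteins that dock there, and the paired STATs enter the nucleus and switch on target genes, among them SOCS3, whose protein then blocks the receptor and its JAKs. In ALK-positive ALCL the NPM-ALK fusion kinase keeps STAT3 phosphorylated, and STAT5 signalling drives the growth and survival of T cells. The arrays read mRNA and say nothing of phosphorylation. DNA methylation and histone marks were not measured.

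Some facts of the arrays stand beside all treatment results. A control probe set for 28S ribosomal RNA read 12.1 to 14.3 on 5 of 8 treated arrays (all but Karpas 299, CCRF-CEM and Jurkat), 6.81 to 8.15 on the other treated arrays and 6.60 to 7.62 on the untreated ones. The SD within an array was 1.60 to 1.81 treated and 1.83 to 1.94 untreated, and the array medians lay between 6.78 and 6.96. The ACTB 3′ minus 5′ difference, a sign of RNA quality, changed by 0.60 ± 0.39 on treatment (SD, n = 8 lines) and was higher on the treated array in 7 of 8 lines. The mean level of 8 T-cell markers was 7.35 to 7.45 in treated and 7.12 to 7.58 in untreated ALCL lines, and 7.71 to 8.26 in treated and 9.58 to 10.3 in untreated T-cell lines. For 5 ALCL markers, which include GZMB, JUNB and ALK, it was 9.47 to 11.1 in treated and 10.3 to 11.4 in untreated ALCL lines, and 6.67 to 6.85 in treated and 6.45 to 6.76 in untreated T-cell lines. Markers of B cells, myeloid cells and NK cells (3 measured of 4 listed in each case) averaged at most 7.71, 5.50 and 7.38 on any array. The part of these shifts in the results was not tested. With RNA from bulk cultures, fewer cells that express a gene and less of its RNA per cell cannot be told apart.

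Treatment changed 5 of the 9 genes in the ALCL lines and 5 in the T-cell lines. STAT4 and JAK1 rose and STAT5B and STAT6 fell in both cell types, STAT3 rose in the ALCL lines, and STAT5A fell in the T-cell lines. Called means an adjusted p below 0.05 in limma, with Benjamini-Hochberg adjustment over the 11963 genes. Of all genes, 21.4% were called in the ALCL lines and 41.9% in the T-cell lines, so the T-cell count is near this background. By direction, 3 members were higher and 2 lower in the ALCL lines, where 8.04% of all genes were higher and 13.4% lower. In the T-cell lines 2 members were higher and 3 lower, where the shares of all genes were 21.7% and 20.2%. The median change of the 9 genes was 0.08 in the ALCL lines and 0.09 in the T-cell lines, beside 0.09 and 0.14 over all genes. All differences are on the log2 scale, with the standard error of the fit after ±.

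**Figure D1:**
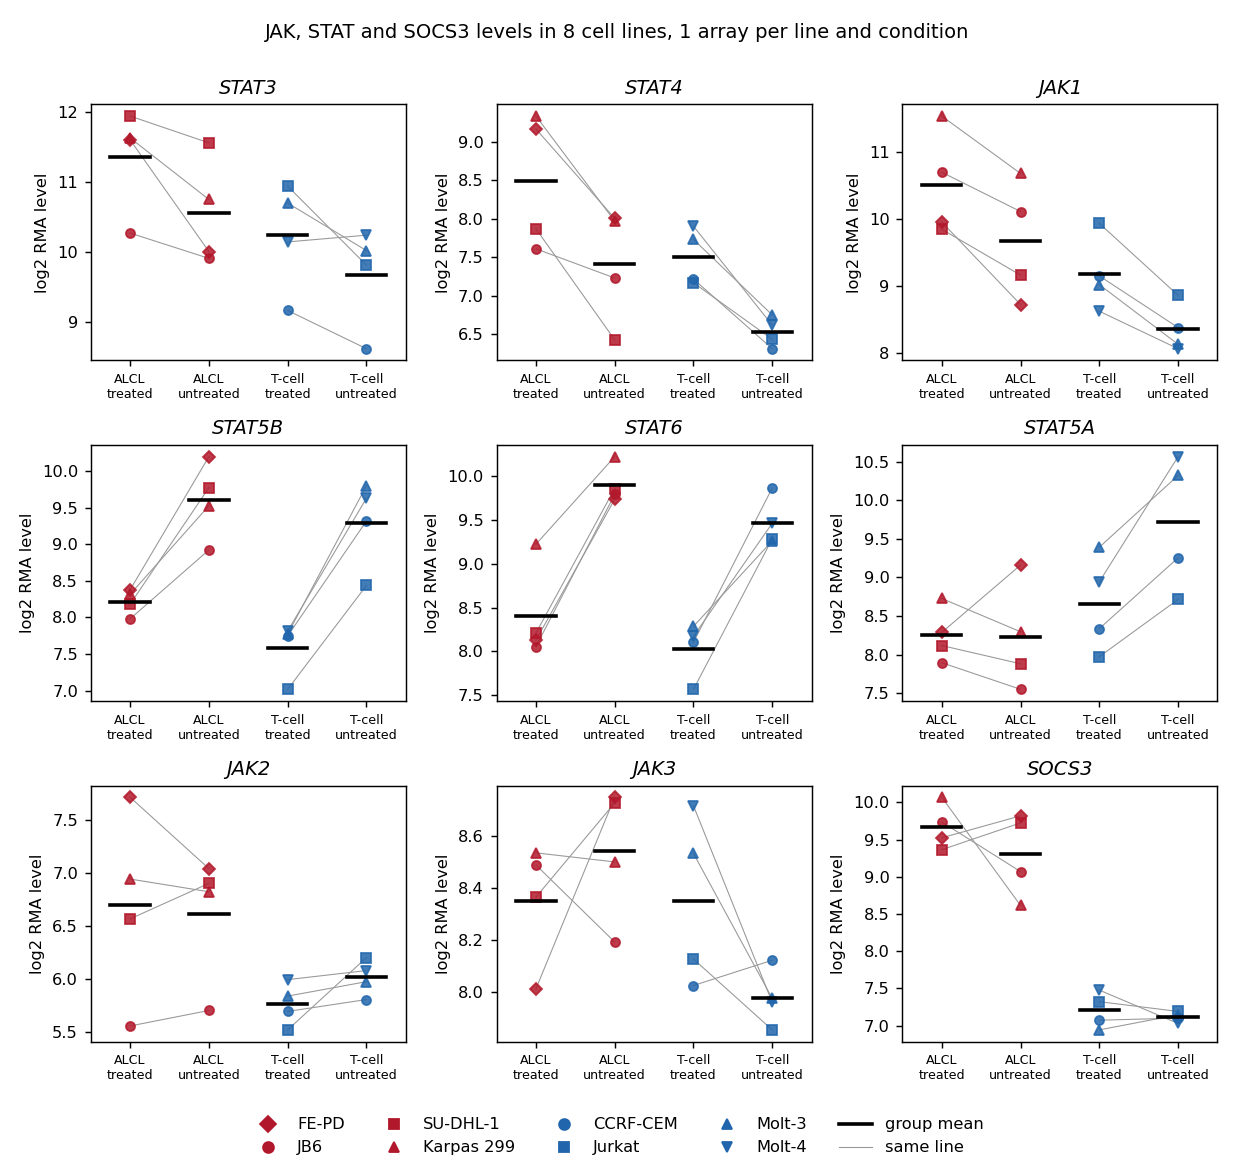
Log2 RMA level (vertical axis, own scale for each gene) of the 9 genes on every array, by group along the horizontal axis, with n = 4 lines a group, black bars at the group means and grey lines joining the arrays of a line. STAT4 and JAK1 are higher and STAT5B and STAT6 lower on the treated array of every line, and SOCS3 is higher in all ALCL arrays (8.62 to 10.07) than in all T-cell arrays (6.94 to 7.48).

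STAT4, which carries interleukin-12 signals and drives T helper 1 responses, rose in 8 of 8 lines. It read 9.16, 7.61, 7.87 and 9.33 in the treated ALCL lines, against 8.002, 7.23, 6.42 and 7.97 in these lines untreated. The rise in the ALCL lines was 1.09 ± 0.18 (2.12-fold, adjusted p = 0.00258). It read 7.21, 7.17, 7.73 and 7.90 in the treated T-cell lines, against 6.31, 6.43, 6.75 and 6.61 untreated. The untreated T-cell lines were the lowest group and did not overlap with their treated arrays, whereas treated and untreated ALCL lines overlapped, with treated JB6 and SU-DHL-1 below untreated FE-PD. The rise in the T-cell lines was 0.98 ± 0.18 (1.97-fold, adjusted p = 0.00274). The smallest change was 0.38, in JB6, and the largest 1.44, in SU-DHL-1.

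JAK1, the kinase bound to the common receptors of interleukins and interferons, also rose in 8 of 8 lines. It read 9.95, 10.69, 9.84 and 11.53 in treated ALCL lines, against 8.72, 10.11, 9.16 and 10.67 in untreated ones, a rise of 0.84 ± 0.14 (1.79-fold, adjusted p = 0.00282). With line as a random block, JAK1 lost this call (adjusted p = 0.0661). In the T-cell lines it read 9.14, 9.93, 9.02 and 8.62 treated, against 8.37, 8.85, 8.12 and 8.06 untreated, a rise of 0.82 ± 0.14 (1.77-fold, adjusted p = 0.00191). Karpas 299 was highest and Molt-4 lowest in both conditions, and the changes lay between 0.56 and 1.23. Of all genes, 15.2% were higher on the treated array in all 8 lines, so the 2 members with this pattern stand near the background.

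STAT3, the factor activated by interleukin-6 type cytokines and by NPM-ALK, read 11.61, 10.27, 11.94 and 11.63 in treated ALCL lines, against 10.01, 9.91, 11.56 and 10.75 in untreated ones. The ALCL lines rose by 0.80 ± 0.23 (1.75-fold, adjusted p = 0.0344), with FE-PD changing by 1.59 and the ALK-positive lines by 0.36 to 0.88. This call was lost in 10 of 18 alternative settings (adjusted p from 0.00398 to 0.713), and without FE-PD the change was 0.54 (adjusted p = 0.102). The call was also lost without JB6, without Karpas 299 and without Molt-3. In the T-cell lines STAT3 read 9.17, 10.94, 10.70 and 10.15 treated, against 8.62, 9.82, 10.02 and 10.24 untreated, with a change of 0.56 ± 0.23 that missed the threshold (adjusted p = 0.0738). Molt-4 alone had the lower value on its treated array, and without Molt-4 the T-cell change of 0.78 passed the threshold. Both STAT3 probe sets followed each other closely over the 16 arrays (r = 0.988).

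STAT5B, a carrier of interleukin-2 and growth hormone signals, fell in 8 of 8 lines. It read 8.38, 7.98, 8.18 and 8.32 in treated ALCL lines, against 10.20, 8.92, 9.77 and 9.53 in untreated ones. The treated ALCL values lay close together (SD 0.18, against 0.53 untreated), and all were below every untreated value. The difference was -1.39 ± 0.16 (2.62-fold lower, adjusted p = 0.00055). In the T-cell lines STAT5B read 7.75, 7.02, 7.77 and 7.81 treated, against 9.32, 8.44, 9.80 and 9.63 untreated, a difference of -1.71 ± 0.16 (3.27-fold lower, adjusted p = 0.000128). All 3 STAT5B probe sets were called lower in both cell types, with differences of -1.26 to -1.71 in the ALCL lines and -1.34 to -1.71 in the T-cell lines.

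STAT6, which carries interleukin-4 and interleukin-13 signals, fell alongside it. It read 8.13, 8.05, 8.21 and 9.22 in treated ALCL lines, against 9.74, 9.79, 9.86 and 10.23 in untreated ones, a difference of -1.50 ± 0.17 (2.83-fold lower, adjusted p = 0.000464). In the T-cell lines it read 8.10, 7.57, 8.29 and 8.17 treated, against 9.87, 9.29, 9.26 and 9.47 untreated, a difference of -1.44 ± 0.17 (2.71-fold lower, adjusted p = 0.000341). Treated and untreated arrays did not overlap in either cell type, and treated Karpas 299 stood above the other treated lines. The second STAT6 probe set, 201332_s_at, was also lower on all 8 treated arrays but by less, with differences of -0.55 (adjusted p = 0.0573) and -0.42 (adjusted p = 0.0824) that missed the threshold over 19065 probe sets. Of all genes, 14% had a change below 0 in each of the 8 lines.

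STAT5A, the close paralog of STAT5B, was called in the T-cell lines and not in the ALCL lines. It read 8.34, 7.97, 9.39 and 8.94 in treated T-cell lines, against 9.25, 8.71, 10.32 and 10.56 in untreated ones, and fell in all of them (difference -1.05 ± 0.22, 2.07-fold, adjusted p = 0.0056). The largest fall, by 1.62, was in Molt-4. The ALCL lines read 8.29, 7.89, 8.12 and 8.73 treated, against 9.16, 7.55, 7.88 and 8.30 untreated, with a mean change of 0.03 ± 0.22 (adjusted p = 0.92). That mean joined a change of -0.87 in FE-PD with changes of 0.34, 0.24 and 0.43 in JB6, SU-DHL-1 and Karpas 299. STAT5A has 1 probe set on the array, and cross-hybridisation between the STAT5 paralogs was not tested.

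The direct test of a difference between cell types was the treatment change in ALCL lines minus that in T-cell lines. It called 0 of the 9 genes in limma, where 1.68% of all genes were called. In simulated data this test recovered 17.8% of genes given a 2-fold difference, so the lack of calls does not show equal changes. An unadjusted p below 0.05 was found for 1551 of the 11963 genes tested and for 1 of the 9 members, which is near this background. That member was STAT5A, with a difference of 1.09 ± 0.31 (adjusted p = 0.148). Without FE-PD it was 1.39 and passed the threshold (adjusted p = 0.0251). For STAT4, JAK1 and STAT6 the 2 cell types differed in their change by 0.11 ± 0.25, 0.02 ± 0.20 and -0.06 ± 0.24, and none of these was called.

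JAK2, JAK3 and SOCS3 had no call for treatment on the probe sets used. JAK2, the kinase of the erythropoietin and growth hormone receptors, changed by 0.08 ± 0.17 in the ALCL lines (adjusted p = 0.763) and by -0.25 ± 0.17 in the T-cell lines (adjusted p = 0.253). JAK3, which binds the common gamma chain of the interleukin-2 receptor family, changed by -0.19 ± 0.19 (adjusted p = 0.474) and by 0.37 ± 0.19 (adjusted p = 0.132). Its probe sets followed each other poorly (r = 0.224 to 0.475 over 16 arrays). JAK3 probe set 211108_s_at read 5.42, 5.18, 5.34 and 5.72 in treated ALCL lines, against 6.36, 5.81, 6.40 and 6.39 in untreated ones, and was called lower (-0.83 ± 0.12, adjusted p = 0.00186 over 19065 probe sets). SOCS3 changed by 0.37 ± 0.27 in the ALCL lines (adjusted p = 0.334) and by 0.09 ± 0.27 in the T-cell lines (adjusted p = 0.797).

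**Figure D2:**
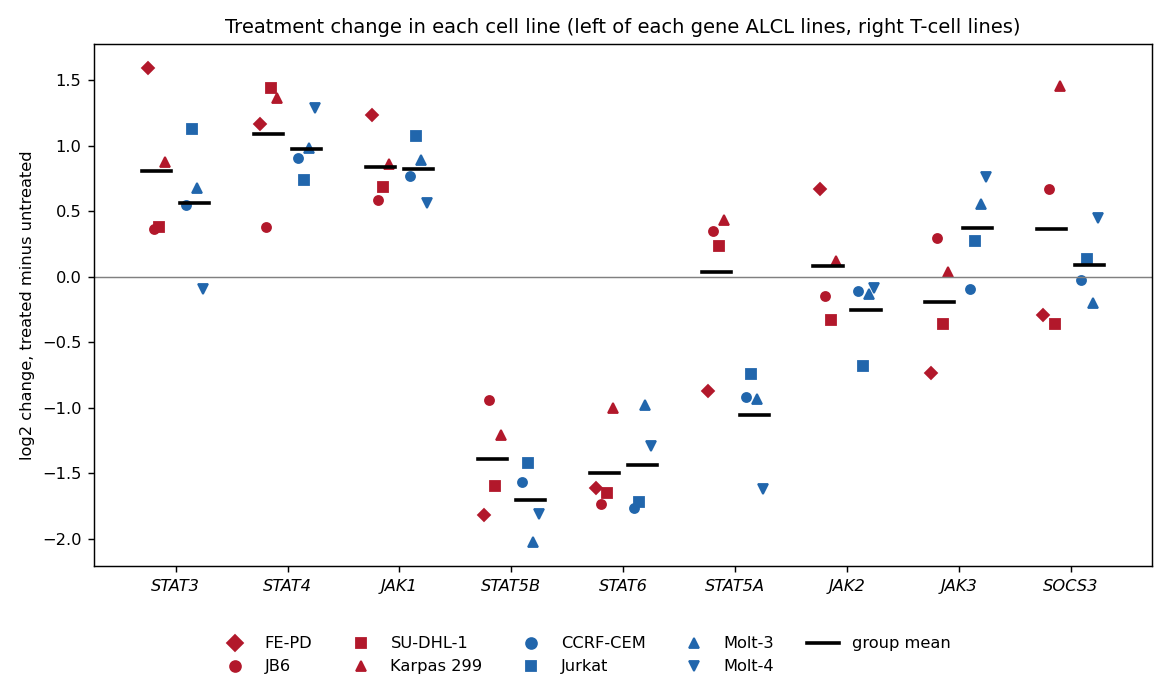
Treatment change of each gene in each line (log2, treated minus untreated, vertical axis), with ALCL lines left and T-cell lines right for each gene along the horizontal axis and black bars at the means of 4 lines. All points lie above 0 for STAT4 and JAK1 and below 0 for STAT5B and STAT6, while STAT5A is below 0 in FE-PD (-0.87) and the T-cell lines and above 0 in the ALK-positive lines.

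The same signs of mean change were seen in the lines with and without the 28S rise. In the 5 lines with it and the 3 without it, the mean change was 1.05 and 1.00 for STAT4, 0.79 and 0.90 for JAK1, and 0.58 and 0.85 for STAT3. It was -1.64 and -1.40 for STAT5B, and -1.45 and -1.49 for STAT6. Centring each array on its hybridisation spikes lowered the median treatment change of all genes by 0.59 in the ALCL lines and 0.66 in the T-cell lines, and left 3.79% and 2.21% of the calls on the higher side, against 37.5% and 51.8%. Under spike centring the all-gene medians were -0.50 and -0.52. STAT4 changed by 0.50 and 0.31, JAK1 by 0.25 and 0.16 and STAT3 by 0.22 and -0.10, all without a call. STAT5B (-1.98 and -2.37) and STAT6 (-2.09 and -2.10) stayed called and lower. This centring shifts all genes of an array by the same amount, so it cannot alter a gene's place relative to the all-gene median. Centring on array medians left 36.0% of the T-cell calls on the higher side.

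The promoters of the genes that moved together in all lines, and of SOCS3, are shown because 5-aza-dC acts on DNA methylated at CpG sites. The windows are the 250 bases before the most upstream start listed for each gene, from RefSeq on GRCh38.p14, 5′ to 3′ on the minus strand that carries all 5 genes, with CG in capitals. A median window of the 9563 of this kind held 19 CpG, with quartiles of 9 and 27. The STAT4 window (chr2:191151597-191151846) held 4, the JAK1 window (chr1:65067747-65067996) 13, the STAT5B window (chr17:42276392-42276641) 47, the STAT6 window (chr12:57110290-57110539) 11 and the SOCS3 window (chr17:78360926-78361175) 13.
STAT4: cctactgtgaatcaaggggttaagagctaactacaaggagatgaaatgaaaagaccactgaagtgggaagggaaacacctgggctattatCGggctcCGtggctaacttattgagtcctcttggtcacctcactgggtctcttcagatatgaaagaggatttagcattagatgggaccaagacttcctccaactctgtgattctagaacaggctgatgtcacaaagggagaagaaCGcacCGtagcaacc
JAK1: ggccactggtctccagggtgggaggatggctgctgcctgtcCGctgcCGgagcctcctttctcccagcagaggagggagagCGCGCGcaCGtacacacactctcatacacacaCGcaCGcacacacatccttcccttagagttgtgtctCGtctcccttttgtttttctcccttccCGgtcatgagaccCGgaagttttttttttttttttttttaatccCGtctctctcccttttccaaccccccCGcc
STAT5B: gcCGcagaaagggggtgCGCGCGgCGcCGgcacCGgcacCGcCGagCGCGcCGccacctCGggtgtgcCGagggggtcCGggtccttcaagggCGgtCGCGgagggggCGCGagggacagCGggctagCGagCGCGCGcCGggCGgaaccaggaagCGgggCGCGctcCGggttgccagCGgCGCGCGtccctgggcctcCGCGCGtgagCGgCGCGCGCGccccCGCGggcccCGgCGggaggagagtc
STAT6: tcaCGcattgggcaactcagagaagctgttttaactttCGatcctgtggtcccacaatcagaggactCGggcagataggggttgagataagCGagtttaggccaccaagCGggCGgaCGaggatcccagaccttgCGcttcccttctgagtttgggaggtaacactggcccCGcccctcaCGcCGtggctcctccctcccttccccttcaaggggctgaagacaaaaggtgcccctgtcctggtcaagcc
SOCS3: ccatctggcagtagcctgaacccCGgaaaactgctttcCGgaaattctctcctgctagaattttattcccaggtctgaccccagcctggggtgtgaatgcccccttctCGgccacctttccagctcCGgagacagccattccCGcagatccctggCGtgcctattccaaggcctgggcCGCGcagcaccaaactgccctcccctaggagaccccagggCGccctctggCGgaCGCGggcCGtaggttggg
The genes that fell thus differ widely in CpG count. STAT5B held more CpG than 99.6% of windows, and STAT6 more than 27.8%. For the genes that rose the count also depends on the start taken, since all listed starts together give 4 to 10 CpG for STAT4 and 3 to 35 for JAK1. The listed starts of SOCS3 give 13 to 30. The STAT5B and STAT6 windows lie inside the span that the annotation gives these genes (chr17:42199177-42288370 and chr12:57095408-57111362), and the others lie just outside it. The STAT binding motif TTCNNNGAA, searched on both strands, occurred in 0 of the 9 members' windows and in 5.80% of all windows. The form with 1 more N occurred at 1 place in the STAT5A window and in 4.39% of all windows. A match is only a stretch of letters, and its absence says only that these letters are not in the window.

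Between cell types, SOCS3 was the member that differed by most, in both conditions. It read 9.82, 9.07, 9.72 and 8.62 in untreated ALCL lines, against 7.10, 7.19, 7.15 and 7.03 in untreated T-cell lines. The groups were far apart and the T-cell values nearly equal (SD 0.07, against 0.57 in the ALCL lines). The difference was 2.19 ± 0.26 (4.57-fold higher, adjusted p = 0.00227). After treatment SOCS3 read 9.52, 9.74, 9.37 and 10.07 in ALCL lines, against 7.07, 7.32, 6.94 and 7.48 in T-cell lines, a difference of 2.47 ± 0.20 (5.54-fold higher, adjusted p = 0.000481). Every treated T-cell line stayed below every untreated ALCL line on this probe set, and the difference between the treatment changes was 0.28 ± 0.38 (adjusted p = 0.816).

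The 3 SOCS3 probe sets did not tell the same story in size. Probe set 206359_at read 10.07, 8.16, 10.16 and 9.18 in untreated ALCL lines, against 5.42, 5.55, 5.61 and 5.20 in untreated T-cell lines (3.95 ± 0.42, 15.5-fold higher, adjusted p = 0.00161 over 19065 probe sets). After treatment it read 10.72, 9.66, 10.38 and 11.20 in ALCL lines, against 5.76, 5.44, 5.81 and 5.83 in T-cell lines (4.78 ± 0.30, 27.5-fold higher, adjusted p = 0.000133). On this probe set treatment raised SOCS3 in the ALCL lines by 1.10 ± 0.26 (adjusted p = 0.0174), most in Karpas 299 (2.02) and JB6 (1.50), which had started lowest. The third probe set, 214105_at, read 5.66 to 6.23 in treated and 5.77 to 6.60 in untreated ALCL lines, against 5.53 to 5.79 in treated and 5.50 to 5.91 in untreated T-cell lines, and was called in neither comparison. The probe sets correlated with r = 0.331 to 0.973 over the 16 arrays.

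**Figure D3:**
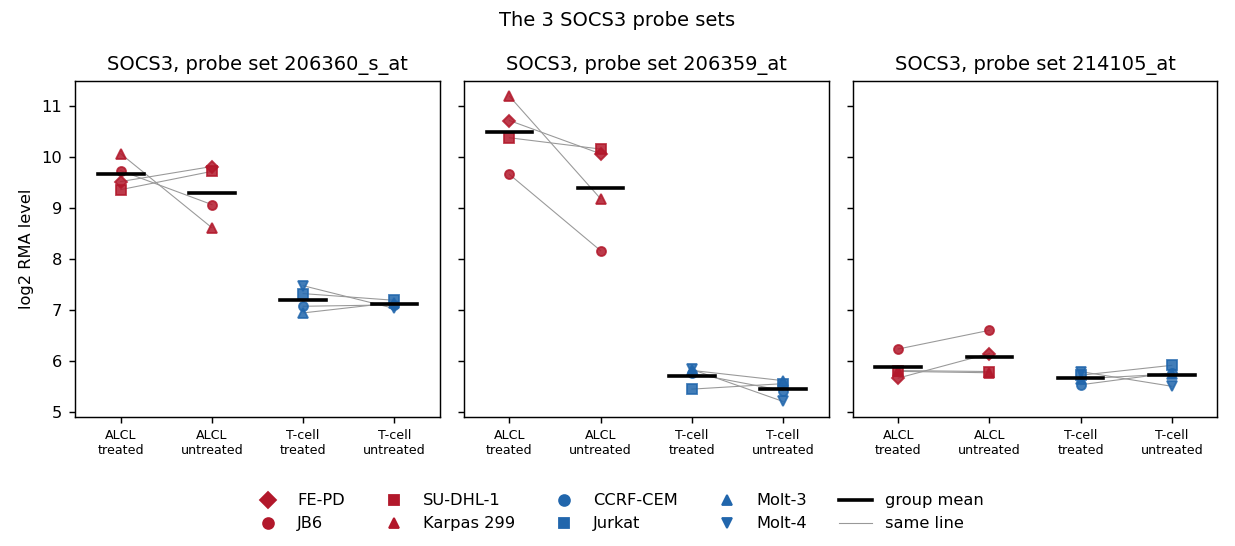
Log2 RMA level (vertical axis, shared scale) of the 3 SOCS3 probe sets on every array by group, with n = 4 lines a group, black bars at the means and grey lines joining the arrays of a line. On 206360_s_at and 206359_at all ALCL arrays lie above all T-cell arrays, and on 214105_at the groups overlap. Heights of different probe sets are not comparable.

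JAK3 was the other member called between untreated cell types, by a smaller margin. It read 8.75, 8.19, 8.73 and 8.50 in untreated ALCL lines, against 8.12, 7.85, 7.98 and 7.96 in untreated T-cell lines. The groups did not overlap, but JB6 at 8.19 was close to CCRF-CEM at 8.12. The difference of 0.56 ± 0.14 (1.48-fold higher) had an adjusted p of 0.0483, and the call was lost in 14 of 17 alternative settings (adjusted p from 0.0172 to 0.494), among them the loss of any of FE-PD, SU-DHL-1, Karpas 299 or a T-cell line. After treatment JAK3 read 8.01, 8.49, 8.37 and 8.54 in ALCL lines, against 8.03, 8.13, 8.53 and 8.72 in T-cell lines, with overlapping groups and equal means of 8.35. Probe set 211108_s_at gave a larger untreated difference of 0.87 ± 0.16 (adjusted p = 0.017 over 19065 probe sets). Treated, it read 5.42, 5.18, 5.34 and 5.72 in ALCL lines, against 4.99, 5.01, 5.10 and 5.10 in T-cell lines, without overlap but without a call (0.37 ± 0.15, adjusted p = 0.27). Probe set 211109_at differed by only 0.21 ± 0.10 between untreated cell types, without a call (adjusted p = 0.261 over 19065 probe sets).

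With SOCS3 and JAK3, 2 of the 9 genes were called between untreated cell types, where 8.76% of all genes were, and 1 between treated cell types, where 2.88% were. The median difference of the members was 0.60 untreated and 0.93 treated, beside 0.04 and -0.03 over all genes. Of the calls over all genes 36.3% were higher in untreated ALCL lines and 47% in treated ones, against 74.7% and 91.9% with arrays centred on their spikes, which raised the all-gene median differences by 0.33 and 0.41. Untreated ALCL lines were all above the untreated T-cell lines for JAK3 and SOCS3, as for 8.61% of all genes. Treated ALCL lines were all above the treated T-cell lines for STAT5B and SOCS3, as for 4.26% of all genes. For STAT5B this held only on the probe set used: on 205026_at and 212550_at treated JB6 (5.89 and 6.35) was below all treated T-cell lines (5.97 to 6.22 and 6.46 to 6.81). No member had all ALCL lines below all T-cell lines, a pattern of 9.74% of all genes untreated and 5.85% treated.

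The remaining members differed between cell types without being called. JAK1 averaged 9.66 ± 0.89 in untreated ALCL lines and 8.35 ± 0.36 in untreated T-cell lines (SD, n = 4 each), a difference of 1.31 ± 0.42 (adjusted p = 0.0944). FE-PD, at 8.72, lay within the T-cell range, and without FE-PD the difference of 1.63 was called. STAT5A was the only member lower in the ALCL lines, with 8.22 ± 0.70 in untreated ALCL and 9.71 ± 0.88 in untreated T-cell lines (SD, n = 4 each) and a difference of -1.49 ± 0.49 (adjusted p = 0.1). It was called with line as a random block over 16 arrays (adjusted p = 0.0241), and in the lines with the 28S rise STAT5A differed by -2.25 without a call. STAT4 differed by 0.88 ± 0.34 (adjusted p = 0.154) untreated and was called without SU-DHL-1, its lowest ALCL line, where the difference was 1.21. JAK2 differed by 0.60 ± 0.28 (adjusted p = 0.233) and was called without JB6, where the difference was 0.90 (adjusted p = 0.00937). STAT3 differed by 0.88 ± 0.46, STAT6 by 0.43 ± 0.17 and STAT5B by 0.31 ± 0.35. After treatment the differences without a call ran from -0.40 for STAT5A to 1.33 for JAK1.

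Set in order of their means, most neighbouring groups overlapped. STAT3 and JAK1 ran from treated ALCL, through untreated ALCL and treated T-cell, down to untreated T-cell lines, with overlap at each step. STAT5A was lowest in untreated ALCL lines (8.22) and highest in untreated T-cell lines (9.71), also with overlap at each step. For STAT5B both untreated groups stood above the treated ALCL lines (8.21), which stood above the treated T-cell lines (7.59), and only the untreated groups overlapped. For SOCS3 the only gap lay between the ALCL groups and the T-cell groups.

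The ALK-positive lines were compared with FE-PD, a single line assumed to vary like the others, and limma called 0 of the 9 genes in any of the 3 comparisons. Few genes at all were called: 0.293% untreated, 0.0752% treated and 0.0251% for the treatment change. The median difference of the members was -0.56 untreated, -0.04 treated and 0.15 for the change, beside -0.09, 0.05 and 0.12 over all genes. In simulated data these comparisons recovered 0% of genes given a 2-fold difference, so the lack of calls does not show equal levels or changes. With 1 array of FE-PD a condition, differences between ALK status and between these particular lines cannot be told apart.

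For the treatment change, STAT5A was the member that set FE-PD apart most. It averaged 0.34 in the ALK-positive lines against -0.87 in FE-PD, a difference of 1.21 ± 0.35 (adjusted p = 0.455), and 0.894% of all genes had a higher difference. Untreated STAT5A stood at 7.55, 7.88 and 8.30 in JB6, SU-DHL-1 and Karpas 299 and at 9.16 in FE-PD, a difference of -1.25 ± 0.71 (adjusted p = 0.637). After treatment the ALK-positive lines read 7.89, 8.12 and 8.73 around FE-PD at 8.29, so the lines then overlapped. STAT3 changed by 0.54 on average in the ALK-positive lines and by 1.59 in FE-PD (difference -1.05 ± 0.44, adjusted p = 0.603). Untreated, STAT3 in FE-PD (10.01) was between JB6 (9.91) and Karpas 299 (10.75).

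On the probe set used, JAK2 was highest in FE-PD in both conditions. It read 5.56, 6.57 and 6.94 in treated JB6, SU-DHL-1 and Karpas 299 against 7.71 in treated FE-PD, a difference of -1.35 ± 0.47 (adjusted p = 0.654). Untreated it read 5.70, 6.90 and 6.82 against 7.04 in FE-PD, a difference of -0.56 ± 0.45 (adjusted p = 0.74). The change was -0.12 in the ALK-positive lines on average and 0.67 in FE-PD (difference -0.79 ± 0.33, adjusted p = 0.599). The other JAK2 probe set, 205841_at, read 6.17 in treated FE-PD and between 4.43 and 5.27 on the other 15 arrays, with untreated SU-DHL-1 (5.08) slightly above untreated FE-PD (5.02), and its change differed by -1.15 ± 0.25 (adjusted p = 0.262 over 19065 probe sets).

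JAK1 went the other way, with 10.11, 9.16 and 10.67 in untreated ALK-positive lines against 8.72 in untreated FE-PD, a difference of 1.26 ± 0.56 (adjusted p = 0.528). SOCS3 read 9.07, 9.72 and 8.62 in untreated ALK-positive lines against 9.82 in FE-PD (-0.68 ± 0.37, adjusted p = 0.622), and treated FE-PD (9.52) lay among the treated ALK-positive lines. For 6 of the 9 genes all untreated ALK-positive lines were below FE-PD, as they were for 35.8% of all genes, and for STAT6 and JAK1 all were above it, as for 17% of all genes. Treated, STAT5B and JAK2 were all below FE-PD (23.5% of all genes) and JAK3 all above (27.7%). The change was above that of FE-PD in all ALK-positive lines for STAT5A, STAT5B and JAK3 (37.7% of all genes) and below it for STAT3, JAK1 and JAK2 (22.3%). These counts are from the probe sets used, and some do not hold on the others. STAT6 probe set 201332_s_at read 7.86, 7.44 and 7.76 in untreated ALK-positive lines against 8.20 in untreated FE-PD (-0.52 ± 0.19, adjusted p = 0.458 over 19065 probe sets), so its order was the opposite. FE-PD lay within the range of the untreated ALK-positive lines on JAK3 probe set 211108_s_at and SOCS3 probe set 206359_at, and treated FE-PD lay within them on the other STAT5B probe sets and on 211108_s_at. On 211108_s_at SU-DHL-1 also had a lower change (-1.06) than FE-PD (-0.94).

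**Figure D4:**
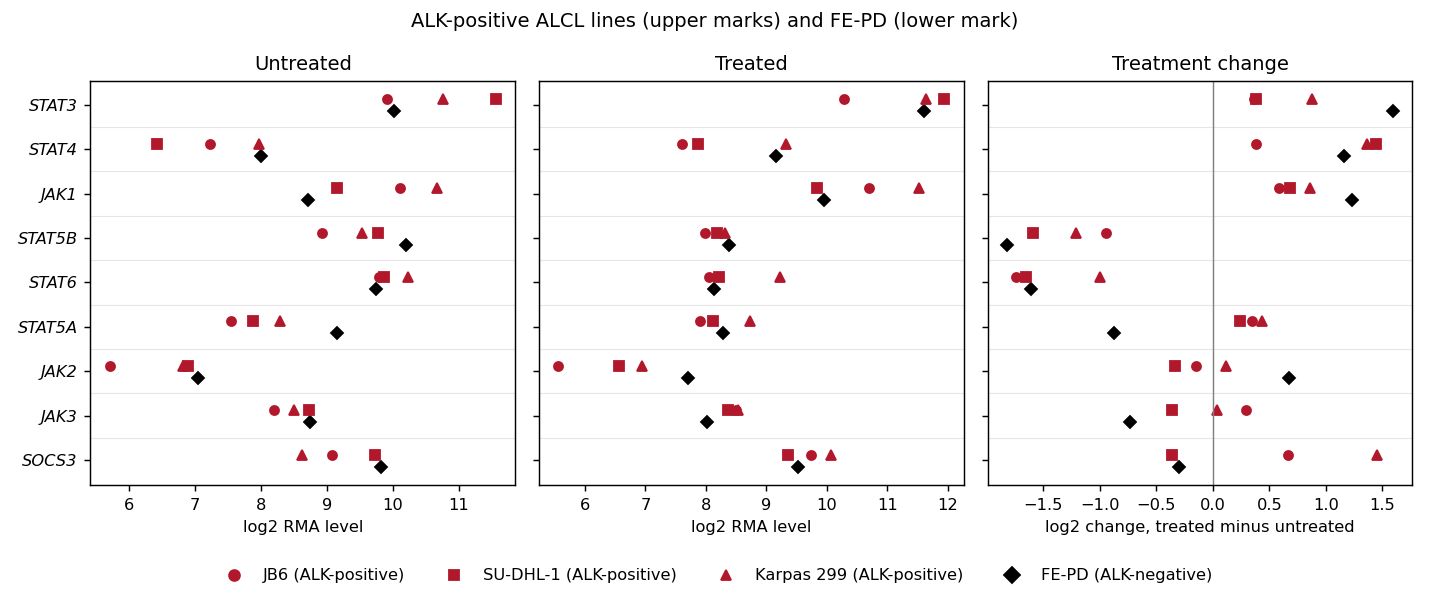
Log2 RMA levels untreated and treated, and the treatment change (log2, treated minus untreated), along the horizontal axes for the 9 genes, with the 3 ALK-positive lines as the upper marks and FE-PD as the lower black mark. FE-PD lies above the ALK-positive lines for JAK2 in each panel, and its STAT5A change (-0.87) lies below theirs (0.24 to 0.43).

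The other genes of the pathway were described by lists chosen by function, with earlier results of these data known. The counts from these lists are therefore a description only. Most receptors, cytokines and negative regulators were not called between untreated cell types, and 14 of 28 targets were called. Of 30 measured receptor chains, 7 were higher and 1 lower in untreated ALCL than in untreated T-cell lines, with a median difference of 0.38 beside 0.04 over all genes. IL2RA (4.78 ± 0.33) and IL2RB (4.50 ± 0.34) led the list. They are chains of the interleukin-2 receptor, which as a whole signals through JAK1 and JAK3 to STAT5. Next came IL4R, the receptor that feeds STAT6 (2.40 ± 0.34), and the interferon gamma receptor IFNGR1 (2.05 ± 0.31). Of 19 measured cytokines, 3 were higher and 0 lower, namely IL26 (4.58 ± 0.36), IL7 (1.66 ± 0.38) and OSM (0.51 ± 0.13).

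Of 28 measured genes known as STAT3 or STAT5 targets, 13 were higher and 1 lower, with a median difference of 0.95. They included the cytotoxic granule genes GZMB (6.52 ± 0.42) and PRF1 (6.12 ± 0.31), the AP-1 factor JUNB (3.49 ± 0.17) and the repressor BCL6 (2.84 ± 0.24). GZMB and JUNB are also on the ALCL marker list. Of 16 measured negative regulators other than SOCS3, SOCS1 was the only one called (3.78 ± 0.36 higher). Over all genes 3.18% were called higher and 5.58% lower in this comparison.

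Between treated cell types, 5 targets were called higher, as were 2 receptors, IL2RB (2.25 ± 0.46) and IL6R (1.40 ± 0.31), and 1 negative regulator, SOCS1 (2.50 ± 0.54), where 1.35% of all genes were. GZMB (6.85 ± 0.24) and CEBPD (2.80 ± 0.14) were among the targets. No gene of these lists was called lower in treated ALCL lines, where 1.53% of all genes were.

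In the ALCL lines treatment lowered 6 and raised 4 of the 30 receptor chains, where 13.4% of all genes fell and 8.04% rose. IL2RA fell by 3.08 and IL2RB fell by 1.36, so the receptors that stood highest in the untreated comparison, which shares the untreated ALCL arrays, were among those that fell. The cytokines IL26 (-3.23 ± 0.19) and IL7 (-1.18 ± 0.22) fell and IL15 rose (1.18 ± 0.33). The negative regulators PTPRC (CD45, a phosphatase of lymphocytes, -2.41 ± 0.32), SOCS1 (-1.05 ± 0.26) and PTPN2 (-0.97 ± 0.22) fell, and none of the 16 rose. Of the 28 targets 3 rose, with FOS by 3.27 ± 0.35, and 5 fell, among them BATF, BIRC5 and S1PR1. In the T-cell lines 8 of the 30 receptors rose and 4 fell, near the 21.7% and 20.2% of all genes, with the common gamma chain IL2RG, the partner of JAK3, falling by 2.05. PTPRC (-2.75 ± 0.32), PTPN6 (-1.50 ± 0.32) and PTPN2 (-1.27 ± 0.22) fell and PTPN1 rose (0.78 ± 0.19). Of the 28 targets 7 rose and 5 fell, also near those shares, and MYC (-3.92 ± 0.41), BCL2L1 (-1.20 ± 0.19) and IRF1 (-1.14 ± 0.11) were among those that fell.

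The change itself differed between cell types for IL26 (-3.25 ± 0.27), IL2RA (-3.66 ± 0.44), IL2RB (-2.25 ± 0.35) and the STAT target IRF1 (1.32 ± 0.16). All were called in limma, as were 1.68% of all genes. Untreated, IL26, IL2RA and IL2RB were higher in the ALCL lines by 4.58, 4.78 and 4.50, which left less room for a fall in the T-cell lines. Whether this limited the T-cell change was not tested. TYK2 was the only other JAK or STAT gene measured here, and it was called in none of the 8 comparisons.

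The genes most like each member over the 16 arrays are a description, since all arrays come from 8 lines and share the treatment and cell type differences. SOCS3 was closest to SERPINA1 (r = 0.971), IL1R2 (0.96) and GZMB (0.954), STAT6 to RCN1 (0.961), HDGF (0.945) and NMI (0.939), and STAT5B to ARHGAP4 (0.949), GTF2I (0.935) and PCGF1 (0.906). STAT4 was closest to EFEMP2 (0.928), CARMIL1 (0.913) and DUSP4 (0.909), and JAK1 to NRIP3 (0.914), LEPROT (0.91) and CDC42BPB (0.904). The closest gene was ODR4 for JAK2 (0.909), GALNT6 for STAT5A (0.906), ATP11A for STAT3 (0.867) and SCGB1D1 for JAK3 (0.852).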

How the data were processed

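Total RNA of 8 cell lines was hybridised to 16 HG-U133A arrays. The deposited values are log2 levels, which the authors made with RMA (R 2.10.1), per the submitters' processing notes. Whether all arrays were normalized as 1 set is not given in the sources used here. Of 22283 probe sets, 19065 had 1 symbol in the platform annotation, 1043 had several, 2107 had none and 68 were controls. Each of 11963 genes was represented by the probe set of highest mean level (16 arrays).

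Groups came from the labels' cell line, cell type and treatment. Differences were tested with limma 3.58.1 (lmFit, eBayes) under R 4.3.3. Tests were two-sided, p-values were adjusted by Benjamini-Hochberg over all genes, and the threshold was 0.05. Treatment effects came from a fit of 16 arrays blocked by cell line (6 residual degrees of freedom, 5 where FE-PD was set against the ALK-positive lines). Comparisons of cell types, and of levels between ALK-positive lines and FE-PD, used 8 arrays each. Where FE-PD was set against the ALK-positive lines, the spread was pooled over the ALK-positive and T-cell lines. The block rests on each line appearing treated and untreated. Deviations of a line's arrays from their group means correlated with r = 0.330 to 0.643, and Molt-4 alone correlated better with another line (0.399).

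All 9 members are named in every comparison. Of the pathway lists, up to 4 called genes with the smallest adjusted p were named for each comparison, and for each member the 3 genes with the highest Pearson correlation over the arrays. The members and lists were chosen with earlier results of these data known. The scripts were tested on simulated data. Alternatives were other blocks, scalings, filters and probe set rules, each line left out, and lines split by 28S. No gene is said to be above background, since detection calls were not used. The number of arrays limits the precision. Sequences and coordinates are from RefSeq, GRCh38.p14, where all 9 members were found by symbol.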

Additional observations from a re-analysis of the deposited data

Results flagged for a closer look

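Of 54 groups of 4 lines examined, 5 held a line far from the other 3 by Dixon's test, and chance gives about 1 in 20. The STAT5A treatment change of FE-PD was -0.87, where the nearest ALCL line had 0.24. Treated Jurkat had a STAT5B level of 7.02, with the nearest treated T-cell line at 7.75. Treated Karpas 299 had a STAT6 level of 9.22, with the nearest treated ALCL line at 8.21. Karpas 299 and Jurkat were lines without the 28S rise, and a link with these levels was not tested. Untreated JB6 had a JAK2 level of 5.70, with the nearest untreated ALCL line at 6.82. The JAK2 change of Jurkat was -0.68, with the nearest T-cell line at -0.14.

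The STAT5A change was above 0 in all 3 ALK-positive lines and below 0 in FE-PD, 1.21 apart on the log2 scale. This opposition of signs was not tested as such, since FE-PD is 1 line, and the fit of the difference did not call it (adjusted p = 0.455).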

How the results depend on the processing

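The counts are of the 9 members called. For treatment in ALCL lines 5 were called, 2 with no replicate block, 3 with line as a random replicate block, 2 when centred on spikes, and 0 in Karpas 299 alone, the only ALCL line without the 28S rise. Without the pairing STAT3, STAT4 and JAK1 lost their calls there, and with the random block STAT3 and JAK1. In T-cell lines 5 were called, 2 with no replicate block and 3 when centred on spikes. For the difference between the changes 0 were called, and leaving out a line gave 0 to 1. Between untreated cell types 2 were called, and 1 with the lowest 40% of genes removed, with arrays centred on their median, with trended robust eBayes, or in lines with the 28S rise. The count was 0 in lines without that rise, and 0 when all of a gene's probe sets had to be called. Leaving out a line gave 1 to 3. Between treated cell types 1 was called, and 0 when all of a gene's probe sets had to be. Leaving out a line gave 4 to 5 for treatment in ALCL lines and 5 to 6 in T-cell lines. The ALK-positive comparisons gave 0 under every alternative run. They were not run without FE-PD or in the lines without the 28S rise, since the contrast needs FE-PD. Of the single-gene results under alternatives, 1091 kept their side of the threshold and direction, 39 lost and 10 gained a call, and 58 uncalled values changed sign. Causes of these shifts were not tested. Where a lone line remained in a fit, it was assumed to vary like the others.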

Other observations

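The pathway lists held few genes that set FE-PD apart. The cyclin gene CCND2, a STAT5 target, was 13.7-fold lower in treated ALK-positive lines than in treated FE-PD (log2 difference -3.77 ± 0.36, limma adjusted p = 0.0106). The treatment change of IL22, a cytokine that signals through STAT3, was 3.38 ± 0.36 higher in the ALK-positive lines than in FE-PD (limma adjusted p = 0.0269). Both rest on a single FE-PD line.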
